A study of Mus musculus with 6 samples.

Results

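Neurons carry sets of RNA-binding proteins that decide which exons are joined, which mRNAs last and which are translated. The 10 genes described here encode 4 such families, ELAVL (Elavl2, Elavl3, Elavl4), NOVA (Nova1, Nova2), RBFOX (Rbfox1, Rbfox2, Rbfox3) and PTBP (Ptbp1, Ptbp2), and were chosen by name. All 10 were among the 55367 gene names of the count table, and all 10 were among the 16976 genes with enough counts to be tested. RNA was measured in 3 WT and 3 Fmr1-KO libraries of cortical neurons in the C57BL/6J strain. Cortex was taken at postnatal day 1 (P1) and its dissociated cells were grown for 2 days in vitro, in both genotypes alike. According to the methods, the cells were depleted of ACSA2+ astrocytes and of myelin before plating. A figure legend of the study calls the samples independently derived, without naming animals or litters. Fmr1-KO mice lack FMRP, the RNA-binding protein missing in fragile X syndrome, and the comparison is Fmr1-KO relative to WT. The study asked of this comparison whether nonsense-mediated mRNA decay (NMD), which degrades mRNAs whose stop codon is read as premature, is altered without FMRP.

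ELAVL proteins bind U-rich and AU-rich stretches of mRNAs and raise their stability, and in the nucleus they act on splicing and polyadenylation. NOVA proteins bind YCAY clusters and RBFOX proteins bind UGCAUG, and both direct the inclusion or skipping of exons in many synaptic and cytoskeletal genes. PTBP proteins bind pyrimidine-rich RNA and mostly repress exons. PTBP1 is abundant in neural progenitors and non-neuronal cells, whereas PTBP2 takes over in differentiating neurons and itself declines later. RBFOX3 is the antigen NeuN, used as a marker of postmitotic neurons.

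The PTBP pair is joined to NMD by an exon, and its sequence is shown because it links the members to the question of the study. When the 34-base coding exon is skipped, the reading frame shifts, and the mRNA becomes a substrate of NMD. PTBP1 causes this skipping in Ptbp2, and PTBP proteins act likewise on Ptbp1. In GENCODE M21 (GRCm38), this is exon 10 of 14 in both genes, at chr10:79862014-79862047 on the plus strand in Ptbp1 and at chr3:119724612-119724645 on the minus strand in Ptbp2. The sequences are given 5′ to 3′, and capitals mark the positions at which the paralogs differ.
Ptbp1: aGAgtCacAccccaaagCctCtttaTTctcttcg
Ptbp2: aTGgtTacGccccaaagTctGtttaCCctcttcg
The exons shared 26 of 34 positions (76.5%). The annotation held 3 transcripts of the NMD class for Ptbp1, 2 of which skip this exon, and 2 for Ptbp2, both of which skip it. It held 0 for each of the other 8 genes. The counts were summed over all exons of a gene, so transcripts with and without this exon could not be separated. The names of all 3 ELAVL genes were in the list of NMD targets that the study derived in N2A neuroblastoma cells, and none of the NOVA, RBFOX or PTBP genes was.

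Elavl4 was also assayed by RT-qPCR in the study, as its mRNA level relative to that of its own pre-mRNA. The primers show how that quantity differs from a gene count. The sense mRNA primer placed 21 bases in the exon at chr4:110226545-110226648 and its last 2 bases, in capitals, in the next exon at chr4:110213128-110213281 (minus strand, GRCm38). The antisense mRNA primer lay in that second exon at chr4:110213161-110213182, so the product was 142 bases of spliced mRNA.
Elavl4 mRNA sense: ctccagaccaaaaccataaagGT
Elavl4 mRNA antisense: tgatgcgaccgtattgagagaa
Elavl4 pre-mRNA sense: cccagtctctctgctccatc
Elavl4 pre-mRNA antisense: ttgtattggatgtcggtcca
Both mRNA primers matched 8 of 12 annotated Elavl4 transcripts and no Elavl2 or Elavl3 transcript. The pre-mRNA sense primer matched 0 of the 12, whereas its antisense partner lay in a coding exon at chr4:110251470-110251489. A read in any exon adds to the gene count, whichever transcript it came from.

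Of the 10 genes, 4 were higher and 3 were lower in Fmr1-KO at an adjusted P under 0.05 by edgeR's quasi-likelihood test. Among all tested genes 42.6% were called, 20.7% higher and 21.9% lower. Calls in both directions are common in these libraries, so the count of members is not read as a result about them. The libraries did not overlap between genotypes for 8 of the 10, against 51.7% of all tested genes. All 4 higher and all 3 lower members were among these, where 19.5% of tested genes were both higher and without overlap and 21.3% both lower and without overlap. The median log2 fold-change was 0.0189 over the 10 genes and 0.00601 over all tested genes. Opposite directions were found within the ELAVL family, where Elavl2 and Elavl4 rose and Elavl3 fell. Rbfox1 and Rbfox3 fell, both PTBP genes rose, and neither NOVA gene was called. Levels are in CPM, counts relative to the library total after TMM scaling between libraries. In bulk cultures, fewer cells of a type and less RNA per cell cannot be told apart.

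**Figure D1:**
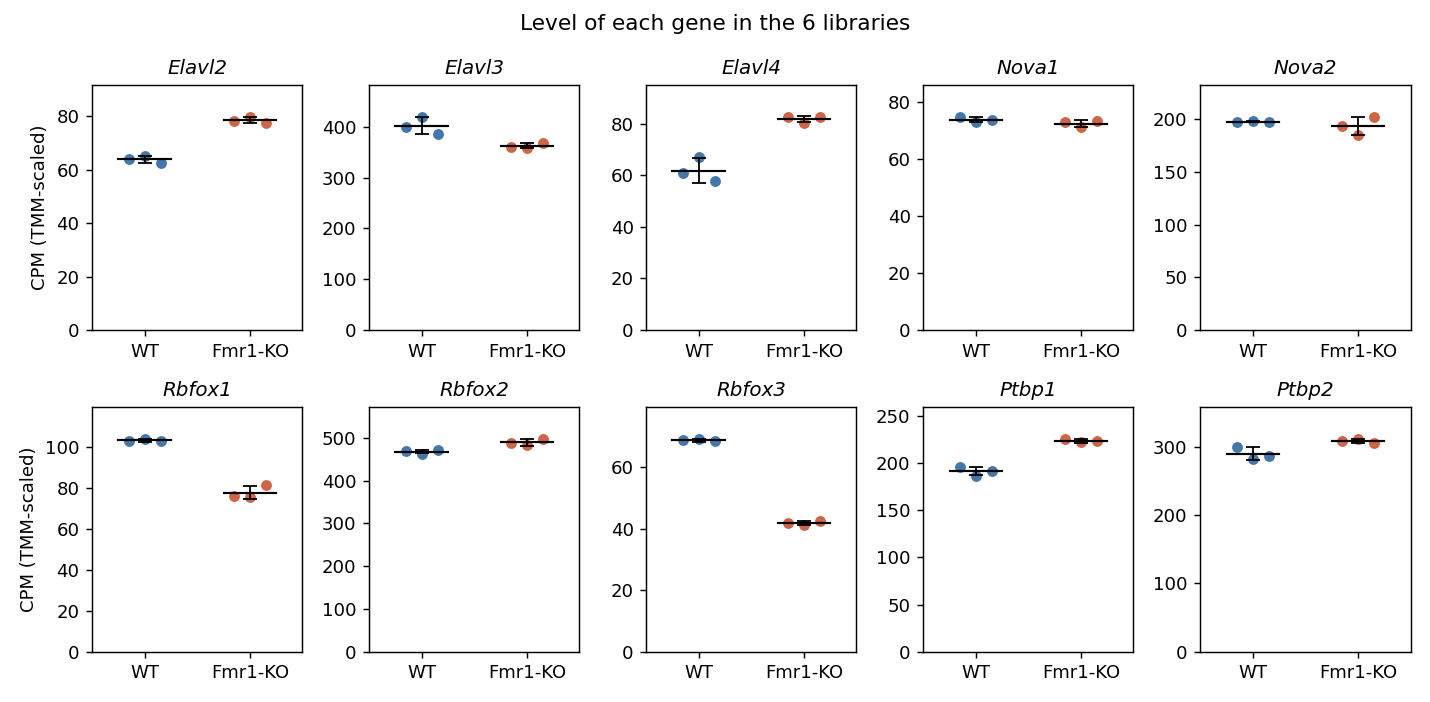
Level of each of the 10 genes in CPM (vertical axis, from 0) in the 3 WT and the 3 Fmr1-KO libraries (points), with the mean and SD (black). Rbfox3 lay between 41.1 and 42.5 CPM in Fmr1-KO against 68.3 to 69.2 CPM in WT, whereas the Nova1 and Nova2 libraries overlapped.

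RNA of the targeted gene was lower in Fmr1-KO but still present there. Fmr1 was at 113.4 ± 4.50 CPM in WT and 57.4 ± 3.67 CPM in Fmr1-KO (SD, n = 3), a log2 fold-change of -0.98. Total counts per library ran from 30348556 to 35126207. The lowest member count in any library was 1257 (Rbfox3 in Fmr1-KO replicate 2). The common coefficient of biological variation was 3.22%, which lets small differences pass the test. P-values rest on 3 samples per genotype, and for each gene edgeR also draws on the spread of the other tested genes.

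RBFOX genes held the largest fall. Rbfox3 lies on chromosome 11 from 118489762 to 118911597 (minus strand, GRCm38). It measured 68.6, 69.2 and 68.3 CPM in WT replicates 1, 2 and 3, and 41.9, 41.1 and 42.5 CPM in Fmr1-KO replicates 1, 2 and 3. The genotypes were far apart relative to their spread. A log2 fold-change of -0.72 (SE 0.04, edgeR adjusted P 3.61e-12) was measured, a change of -39.1%. Rbfox1, which acts on synaptic exons in the nucleus and on mRNA stability in the cytoplasm, lies on chromosome 16 from 5885355 to 7411526. It measured 102.7, 104.1 and 103.02 CPM in WT and 75.99, 75.4 and 81.2 CPM in Fmr1-KO. All Fmr1-KO libraries again lay below all WT libraries, and a log2 fold-change of -0.41 (SE 0.04, edgeR adjusted P 7.22e-09) was measured.

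Rbfox2, the most widely expressed gene of the family, is on chromosome 15 from 77078990 to 77307004. It measured 469.5, 463.01 and 470.6 CPM in WT and 487.9, 481.9 and 497.9 CPM in Fmr1-KO. Its libraries did not overlap, yet the difference was small and was not called (log2 fold-change 0.065, 95% interval 0.007 to 0.12, adjusted P 0.0663 by edgeR). The estimates of the 3 genes thus differed in sign, although that of Rbfox2 did not pass the test. Their summed level was 639.7 ± 3.00 CPM in WT and 608.6 ± 11.9 CPM in Fmr1-KO (SD, n = 3).

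Among ELAVL genes, Elavl4 (HuD) showed the largest rise of the 10 genes. It lies on chromosome 4 from 110203722 to 110351909. Its WT libraries measured 60.9, 66.8 and 57.5 CPM and its Fmr1-KO libraries 82.4, 80.4 and 82.6 CPM. The WT libraries were spread more widely, but all were below the lowest Fmr1-KO library. A log2 fold-change of 0.41 (SE 0.04, edgeR adjusted P 2.02e-07) was measured, an increase of 32.5%. Elavl2 (HuB) lies on the same chromosome from 91250763 to 91400785. It rose from 63.9, 65.03 and 62.7 CPM in WT to 78.2, 79.8 and 77.7 CPM in Fmr1-KO, without overlap. A log2 fold-change of 0.30 (SE 0.04, edgeR adjusted P 6.73e-07) was measured.

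Elavl3 (HuC), the most abundant ELAVL gene, moved the other way. It lies on chromosome 9 from 22015005 to 22052023 and shares 3.72% of its merged exon length with another annotated gene on the same strand, Gm49318. It fell from 399.4, 420.1 and 386.9 CPM in WT to 361.2, 359.5 and 369.5 CPM in Fmr1-KO. The genotypes did not overlap, and a log2 fold-change of -0.15 (SE 0.03, edgeR adjusted P 0.0008) was measured. The rises of Elavl2 and Elavl4 and the fall of Elavl3 nearly cancelled in the sum over the family, which was 527.8 ± 22.6 CPM in WT and 523.7 ± 5.30 CPM in Fmr1-KO (SD, n = 3). Elavl1 (HuR), the widely expressed relative outside the neuronal trio, measured 150.3 ± 3.50 and 148.1 ± 4.85 CPM and was not called (log2 fold-change -0.021, 95% interval -0.09 to 0.05, adjusted P 0.659 by edgeR).

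**Figure D2:**
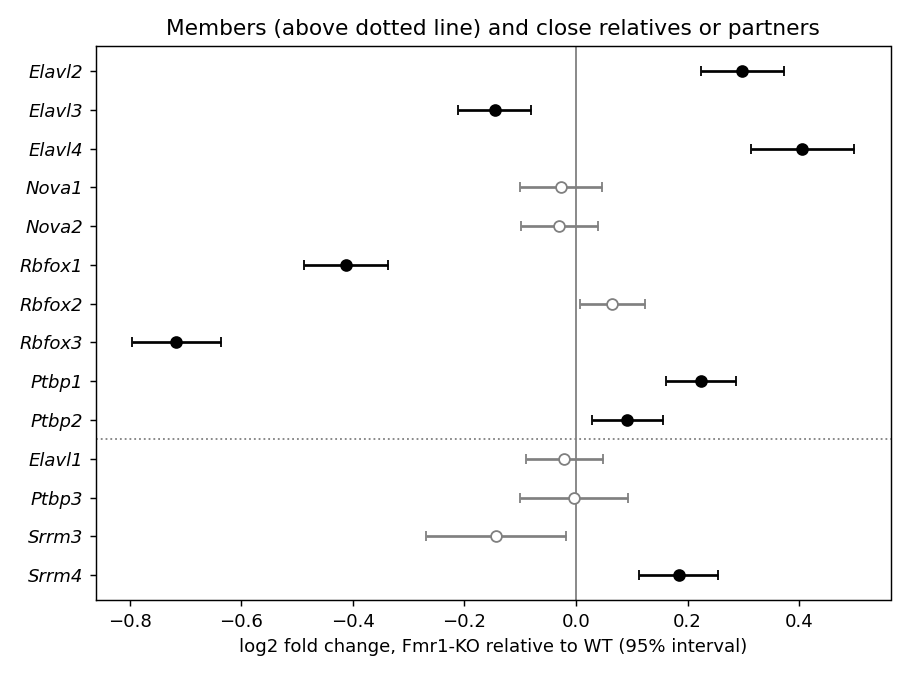
Log2 fold-change of Fmr1-KO relative to WT (horizontal axis) with its 95% interval for the 10 genes and, below the dotted line, 4 relatives or partners. Filled points passed an adjusted P of 0.05 by edgeR, and the values run from -0.72 for Rbfox3 to 0.41 for Elavl4.

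Both PTBP genes were higher. Ptbp1, on chromosome 10 from 79854427 to 79864771, measured 195.7, 186.9 and 192.1 CPM in WT and 226.1, 222.1 and 223.5 CPM in Fmr1-KO. The genotypes were separate, with a log2 fold-change of 0.22 (SE 0.03, edgeR adjusted P 3.11e-06). Ptbp2, on chromosome 3 from 119718742 to 119784466, measured 300.2, 281.6 and 287.1 CPM in WT and 308.7, 312.03 and 305.7 CPM in Fmr1-KO. WT replicate 1 came close to the lowest Fmr1-KO library without overlap, and a log2 fold-change of 0.092 (SE 0.03, edgeR adjusted P 0.0187) was measured. That call was lost without WT replicate 2 (0.07, adjusted P 0.0936), WT replicate 3 (0.09, adjusted P 0.0696) or Fmr1-KO replicate 1 (0.09, adjusted P 0.0511). Ptbp3, a relative expressed in several tissues, was at 45.8 ± 2.02 CPM in WT and 45.8 ± 2.25 CPM in Fmr1-KO (log2 fold-change -0.0032, 95% interval -0.1 to 0.09, adjusted P 0.965 by edgeR).

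NOVA genes did not pass the test. Nova1, on chromosome 12 from 46694517 to 46818929, measured 74.7, 72.8 and 73.6 CPM in WT and 72.7, 71.02 and 73.2 CPM in Fmr1-KO. Nova2, on chromosome 7 from 18925888 to 18965319, measured 197.7, 198.1 and 197.6 CPM in WT and 193.9, 184.96 and 202.3 CPM in Fmr1-KO. The libraries of both genes overlapped between genotypes. The 95% interval of the log2 fold-change ran from -0.1 to 0.05 for Nova1 (adjusted P 0.573 by edgeR) and from -0.099 to 0.04 for Nova2 (adjusted P 0.512), which is the range of differences these libraries leave for each. Nova1 shares 3.54% of its merged exon length with Gm33869 on the same strand.

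Levels were then compared between genes per kilobase of merged exons (RPKM), since a longer mRNA gives more reads. The order given here is for that length, and parts of it turn with the longest transcript instead. In WT, Elavl3 (58.4 ± 2.43 RPKM) and Rbfox2 (57.5 ± 0.504 RPKM) were at the top, and their libraries overlapped. Ptbp1 (40.4 ± 0.928 RPKM) and Ptbp2 (31.6 ± 1.05 RPKM) followed. Nova2 (23.6 ± 0.036 RPKM) and Rbfox1 (23.5 ± 0.159 RPKM) could not be ordered, nor could Rbfox3 (11.8 ± 0.0793 RPKM) and Elavl4 (11.5 ± 0.875 RPKM). Nova1 (8.43 ± 0.107 RPKM) and Elavl2 (7.68 ± 0.141 RPKM) were lowest (SD, n = 3 for each). In Fmr1-KO, Rbfox2 (60.1 ± 0.994 RPKM) lay above Elavl3 (52.7 ± 0.777 RPKM) with no overlap, and Rbfox3 (7.19 ± 0.120 RPKM) moved from rank 7 to rank 10. Elavl4 (15.2 ± 0.231 RPKM) took rank 7. Per kilobase of the longest transcript, Ptbp2 (71.6 RPKM in WT) lay above both Ptbp1 (60.5 RPKM) and Rbfox2 (67.7 RPKM) without overlap, and Rbfox1 (33.7 RPKM) lay above Nova2. Elavl2 (15.2 RPKM) then took rank 8 in WT, but its libraries overlapped those of Elavl4 (14.9 RPKM), and Nova1 (10.3 RPKM) was lowest. On that length in Fmr1-KO, Ptbp2 (76.3 RPKM) ranked first, and Elavl3 (72.5 RPKM) and Rbfox2 (70.8 RPKM) overlapped. Rbfox3 (13.3 RPKM) moved from rank 7 in WT to rank 9 in Fmr1-KO, above Nova1 (10.1 RPKM). In Fmr1-KO, Rbfox3 lay below Elavl4 and Elavl2 with both lengths, but was the lowest of the 10 only with merged exons.

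**Figure D3:**
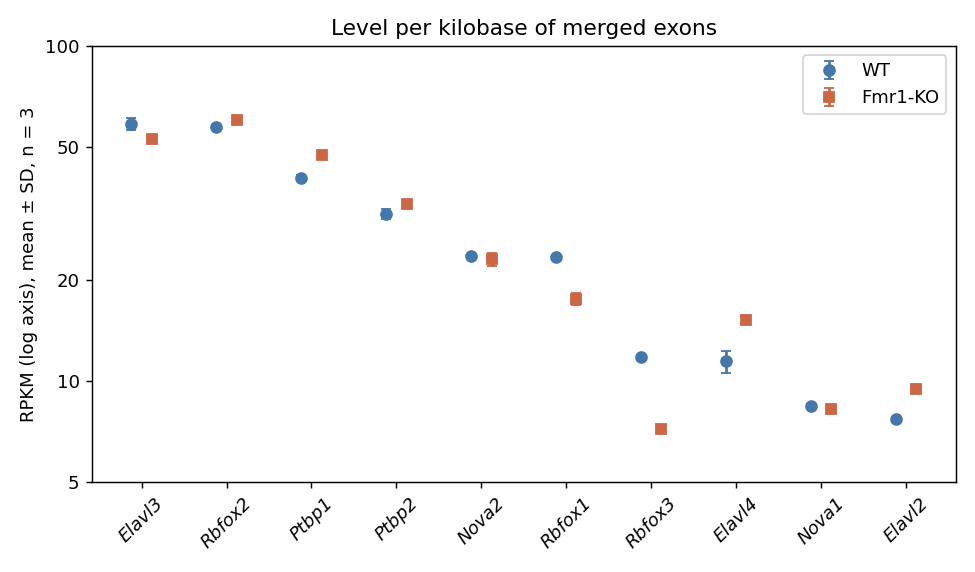
Mean RPKM with SD (vertical log axis, n = 3) of the 10 genes in WT (circles) and Fmr1-KO (squares), per kilobase of merged exons and ordered by the WT mean. Levels in WT run from 58.4 RPKM for Elavl3 to 7.68 RPKM for Elavl2, and Rbfox3 falls from 11.8 to 7.19 RPKM.

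The balance within a family does not depend on library scaling, so ratios of RPKM were taken in each library. Their size depends on the exon length used, but the difference between genotypes on the log2 scale does not, since length cancels. They are given as a description, with no test. The Ptbp2 to Ptbp1 ratio was 0.793, 0.778 and 0.772 in WT and 0.705, 0.726 and 0.707 in Fmr1-KO, so every Fmr1-KO library held less Ptbp2 per Ptbp1. The difference was -0.13 on the log2 scale. The Elavl4 to Elavl3 ratio was 0.195, 0.204 and 0.190 in WT and 0.292, 0.286 and 0.286 in Fmr1-KO, a difference of 0.55. That of Elavl2 to Elavl3 differed by 0.44 without overlap, whereas that of Elavl4 to Elavl2 overlapped between genotypes (1.49 ± 0.0868 in WT and 1.61 ± 0.0468 in Fmr1-KO).

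The Rbfox3 to Rbfox2 ratio was 0.205, 0.209 and 0.203 in WT and 0.120, 0.119 and 0.119 in Fmr1-KO, the largest difference of the 7 ratios taken (-0.78). The Rbfox1 to Rbfox2 ratio was 0.409 ± 0.00629 in WT and 0.293 ± 0.0075 in Fmr1-KO, also without overlap. The Nova2 to Nova1 ratio was 2.81 ± 0.0384 and 2.80 ± 0.0844 (SD, n = 3), and its libraries overlapped. With the longest transcript, an alternative added after the data were seen, the mean Ptbp2 to Ptbp1 ratio was 1.18 in WT and 1.08 in Fmr1-KO, so which PTBP mRNA is the more abundant is not settled by these counts. Elavl4 to Elavl2 was then 0.976 and 1.05, and Rbfox3 to Rbfox2 was 0.322 and 0.187.

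**Figure D4:**
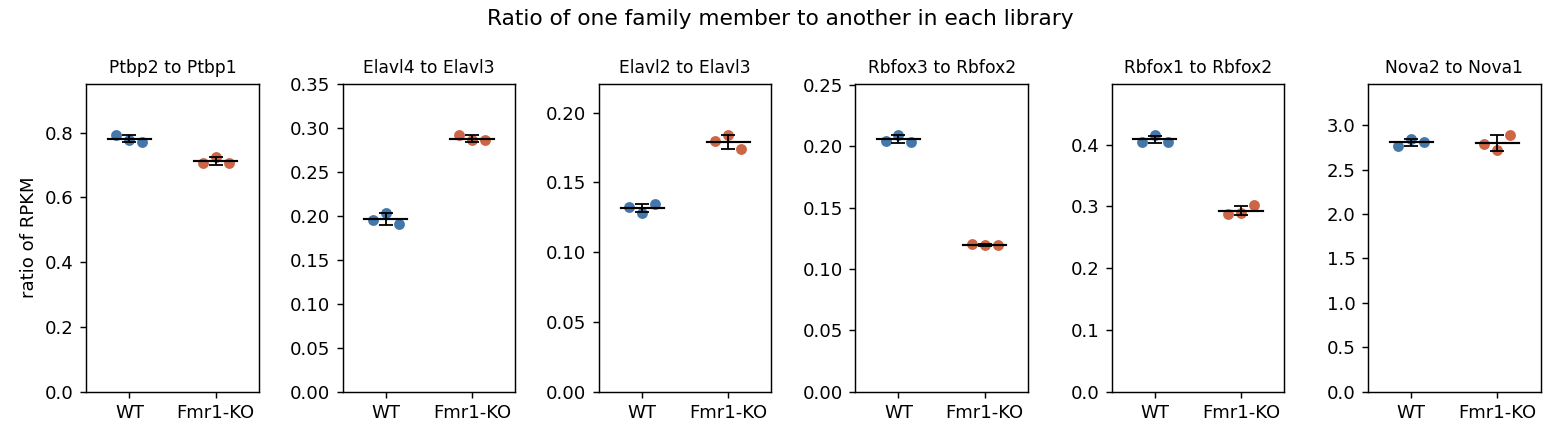
Ratio of the RPKM of one family member to another (vertical axes, from 0) in the 3 WT and the 3 Fmr1-KO libraries (points), with mean and SD (black). Genotypes are separate for Ptbp2 to Ptbp1, both Elavl3 ratios and both Rbfox2 ratios, and overlap for Nova2 to Nova1.

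Promoter windows are described next, with those of Elavl4 and Rbfox3 printed because these genes stood at opposite ends of the fold-changes. RefSeq windows around annotated transcription starts, mostly upstream of them (GRCm38.p6), were found for 9 of the 10 genes. The 5′-most Elavl4 window, at chr4:110351862-110352161 on the minus strand, and that of Rbfox3, at chr11:118760992-118761291 on the minus strand, are shown with CpG in capitals.
Elavl4: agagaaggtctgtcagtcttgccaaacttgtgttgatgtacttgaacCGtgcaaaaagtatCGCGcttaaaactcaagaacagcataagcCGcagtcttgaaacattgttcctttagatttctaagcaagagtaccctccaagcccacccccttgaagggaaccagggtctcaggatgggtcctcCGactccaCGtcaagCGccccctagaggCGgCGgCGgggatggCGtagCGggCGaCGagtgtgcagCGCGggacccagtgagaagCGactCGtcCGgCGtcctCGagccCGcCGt
Rbfox3: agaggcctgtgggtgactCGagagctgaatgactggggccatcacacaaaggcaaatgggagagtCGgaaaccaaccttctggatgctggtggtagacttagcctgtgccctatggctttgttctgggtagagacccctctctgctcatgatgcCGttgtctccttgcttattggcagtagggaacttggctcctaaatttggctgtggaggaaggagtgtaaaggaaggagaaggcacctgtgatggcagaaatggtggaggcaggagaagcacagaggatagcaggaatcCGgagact
This Elavl4 window held 23 CpG and the Rbfox3 window 4, where the median of 32851 windows was 7. The other 3 Elavl4 windows, at inner starts, held 4 to 6 CpG, and those of Rbfox1 held 3 and 7. The windows of Ptbp1 (22), Ptbp2 (36), Elavl3 (29), Nova1 (14) and Nova2 (17) and all 6 of Elavl2 (10 to 27) were above the median. The Rbfox3 window lies within the GENCODE span of the gene rather than at its 5′ end. Which start was used in these cultures is not known from gene counts, and CpG content is given as a description. Its relation to the fold-changes was not tested.

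The letters of the RBFOX element, TGCATG in DNA, were also sought on the sense strand of the longest coding transcript of each gene. They occurred 6 times in Nova1 (0.839 per kb), 3 times in Nova2, 2 times in Rbfox3, 1 time each in Elavl3, Elavl4, Rbfox1 and Ptbp2, and not in Elavl2, Rbfox2 or Ptbp1. Of 21877 coding genes 51.7% held at least 1 match, and the upper quartile was 0.461 per kb. TTTATTT, an AU-rich stretch of the kind ELAVL proteins bind, occurred 6 times in Elavl2 and 4 times in Elavl4, or 1.43 and 0.964 per kb, against an upper quartile of 0.392 per kb over the same genes. It occurred 5 times in Nova1 (0.699 per kb) and 2 times in Ptbp2 (0.53 per kb), also above that quartile, 1 time each in Elavl3, Rbfox1, Rbfox2 and Ptbp1, and not in Nova2 or Rbfox3. A match is not a binding site.

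Other neural splicing and RNA-binding regulators were taken as a fixed list of 30 genes, chosen with earlier results of these data known. Of the 29 tested, 12 were higher, 5 lower and 12 not called, with a median log2 fold-change of 0.033. Srrm4, which promotes neuronal microexons, rose from 78.9 ± 1.01 to 89.6 ± 0.609 CPM (log2 fold-change 0.18, adjusted P 0.000139 by edgeR). Its relative Srrm3 was at 20.6 ± 1.19 and 18.6 ± 0.449 CPM and was not called (-0.14, adjusted P 0.062). The largest rises were those of Mbnl3 (0.77), a muscleblind family member at about 1 CPM, Igf2bp1 (0.52), an mRNA-binding protein of embryonic tissue, and Rbm38 (0.35). The largest falls were those of Khdrbs2 (-0.63), the neuronal splicing factor SLM1, Celf5 (-0.19) and Celf6 (-0.18).

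Genes known to be regulated by the members were examined as RNA levels. These counts do not measure splicing, so they say nothing of exon inclusion. The lists here and below, like the members, were chosen with earlier results of these data known, so their counts are a description. Among all tested genes, 21.9% were lower and 20.7% higher. Of 15 mRNAs known to be bound by neuronal ELAVL proteins, 11 were lower and 3 higher, with a median log2 fold-change of -0.29. Ache, encoding acetylcholinesterase, had -1.28 and Gap43, the growth cone protein, had -0.97. Cdkn1b, encoding the cell cycle inhibitor p27, rose (0.38), as did Kcnq3 (0.18) and Slc2a1 (0.16).

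Of 14 pre-mRNAs with NOVA-regulated exons, 9 were lower and 2 higher (median -0.15), led by Kcnj6 (-0.96), a potassium channel gene near 2 CPM, Cacna1b (-0.44) and Rap1gap (-0.40). Agrn (0.16) and Clasp1 (0.09) rose. Of 14 genes listed as regulated by RBFOX proteins, by exon or otherwise, 10 were lower and 3 higher (median -0.13). Grin1 (-0.92), an NMDA receptor subunit gene, Snap25 (-0.63) and Nfasc (-0.55) fell furthest, and Fn1, Vamp1 and Ewsr1 rose (0.53, 0.20 and 0.12). Of 14 with PTBP-repressed exons, 7 were lower and 4 higher (median -0.11). Dnm1 (-0.80), Dlg4 (-0.36), which encodes PSD-95, and Cltb (-0.28) had the largest falls, and Flna (0.27), Tpm1 (0.25) and Actn1 (0.13) the largest rises. Each gene named from these lists passed an adjusted P of 0.05 by edgeR. Gap43 and Snap25 are also in the neuron list below.

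**Figure D5:**
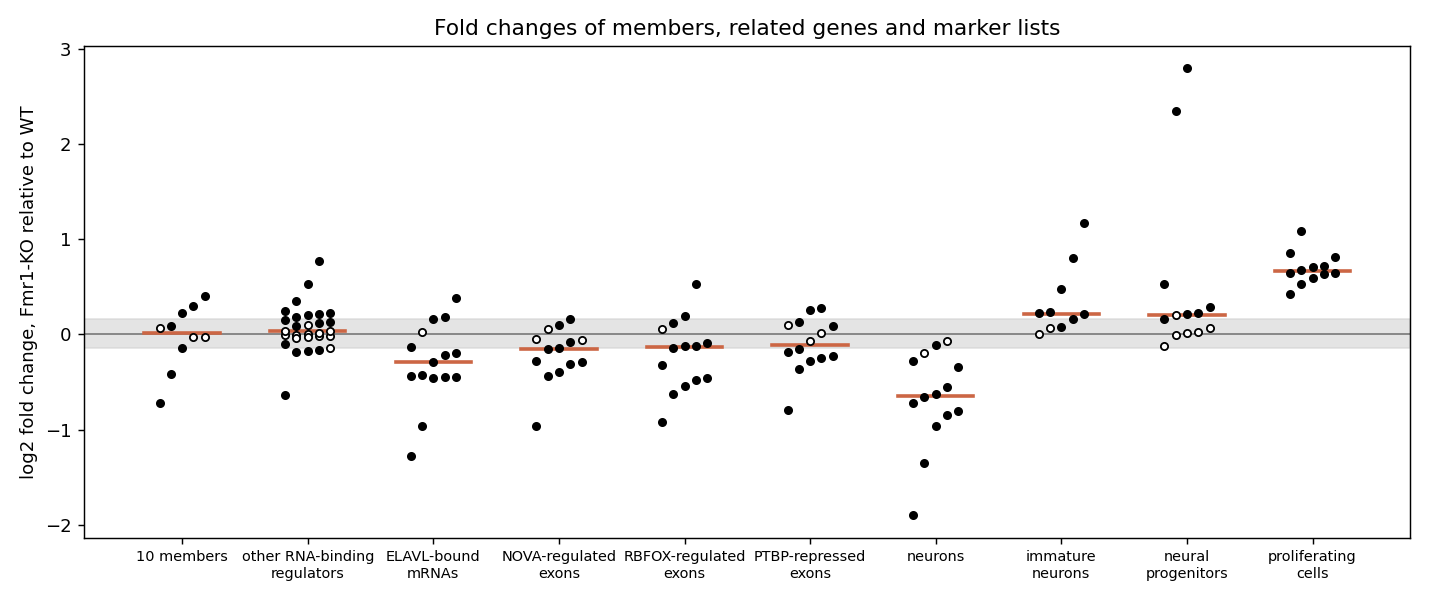
Log2 fold-change of Fmr1-KO relative to WT (vertical axis) for the 10 genes, the related lists and 4 marker lists. Filled points were called, open points were not, coloured bars are list medians and the grey band is the middle 50% of all tested genes (-0.145 to 0.162). Neuron markers have a median of -0.64 and proliferation markers of 0.66.

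Markers of cell types moved with genotype too, and their part in the differences above was not tested. Of 14 neuron markers, which include Rbfox3, 12 were lower and 0 higher (median -0.64), and their summed level was 4447 to 4556 CPM in WT and 3364 to 3553 CPM in Fmr1-KO. Nefl (-1.90) and Nefm (-1.35), encoding neurofilaments, fell furthest. Of 10 immature neuron markers, 8 were higher and 0 lower (median 0.22; 3210 to 3268 CPM in WT and 3738 to 3936 CPM in Fmr1-KO). Nhlh1 (1.17), Igfbpl1 (0.80) and Sox11 (0.48) led them. Of 13 neural progenitor markers, 7 were higher and 0 lower (median 0.20; 3594 to 3629 and 3973 to 4067 CPM), with Eomes at 2.79 and Neurog2 at 2.34. All 12 proliferation markers were higher (median 0.66; 700.3 to 744.7 CPM in WT and 1200 to 1251 CPM in Fmr1-KO), with Mki67 at 1.09.

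Excitatory neuron markers were split (2 higher and 4 lower of 9; median -0.12; 706.3 to 713.8 and 663.6 to 669.3 CPM), as were GABAergic interneuron markers (4 higher and 6 lower of 11; median -0.14; 809.7 to 843.6 and 836.7 to 924.5 CPM). Single genes moved much further than these medians. Among excitatory markers Slc17a7 fell furthest (-2.45) and Fezf2 rose most (0.29). Among interneuron markers Sst (-2.53) and Npy (-2.43) fell furthest, and Dlx2 (0.59) and Dlx1 (0.46) rose most. Glial and other cells were present in these cultures. Astrocyte markers summed to 4725 to 4863 CPM in WT and 4059 to 4439 CPM in Fmr1-KO (2 higher and 5 lower of 8; median -0.11), with Gfap at 2649 ± 67.0 CPM in WT. All 10 oligodendrocyte lineage markers were lower (median -0.73; 2346 to 2551 and 1344 to 1448 CPM), as were 7 of 9 microglia markers (median -0.51; 216.2 to 238.4 and 126.2 to 140.0 CPM). Of 9 tested endothelial, mural and fibroblast markers, 2 were higher and 5 lower (median -0.28; 363.0 to 401.9 and 362.0 to 389.0 CPM). Erythroid markers were near 0, at most 1.71 CPM in sum, with both tested genes lower (median -1.02).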

How the data were processed

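The authors deposited raw counts per gene name, not normalized, for 3 WT and 3 Fmr1-KO libraries (polyA RNA, stranded kit, single-end reads). Per the labels and methods, FastP removed adapters and low-quality ends, STAR placed the reads on GRCm38.p6, and featureCounts assigned them to exons in reverse-stranded mode, so antisense genes are kept apart, whereas isoforms and pre-mRNA are not. The submitters' processing notes list STAR 2.7.6a and Subread 2.0.1. A count above 0 was found for 31650 of 55367 gene names.

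The fit used all libraries and edgeR 4.0.16 (R 4.3.3): filterByExpr, TMM, glmQLFit and glmQLFTest, 2-sided, genotype as the only term, Benjamini-Hochberg adjustment over all tested genes. SE is the log2 fold-change divided by the square root of F, and 95% intervals are not adjusted. RPKM divides TMM-scaled CPM by merged exon length in GENCODE M21, an earlier release than the authors used. Promoter windows are from RefSeq. On simulated data in which 200 of 16976 genes changed by 1 log2 unit, 93.0% were recovered and 0.0421% of the others were called. The simulation gave every gene the same biological variation, and its change was larger than that of any member. It also changed a far smaller share of genes than the 42.6% called here. Its rates therefore do not cover the calls of the members.

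The members and lists were chosen with earlier results of these data known. The text names all members, Fmr1, Elavl1, Ptbp3, Srrm3 and Srrm4, and at most the 3 called genes of at least 1 CPM with the largest change per direction in each list, except for a result that is not reported here. Same-genotype libraries spread beyond counting noise (chi-square per degree of freedom 2.91 in WT and 3.15 in Fmr1-KO). The labels name no batch. Alternatives were DESeq2 1.42.0, other normalizations and filters, a minimum fold change of 1.2, a replicate block and leaving out each library.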

Additional observations from a re-analysis of the deposited data

How the results depend on the processing

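Among 150 log2 fold-changes recomputed for the 10 genes, 138 had the sign and call given above, 7 lost their call, 3 gained one and 2 reversed. A minimum fold change of 1.2 is a stricter test and left 1340 lower and 883 higher genes (13.1% of those tested). It left 2 lower members (Rbfox1 and Rbfox3), 1 higher member (Elavl4), and 1 lower and 1 higher regulator. The other 3 lost calls were those of Ptbp2 given above. Rbfox2 passed with upper-quartile normalization (0.076, adjusted P 0.032 by edgeR), with library totals alone (0.093, adjusted P 0.0101) and without Fmr1-KO replicate 2 (0.075, adjusted P 0.0354); the cause was not tested. Across the 6 fits that each left out a library, 3 members were lower in all and 3 to 5 higher, and lower regulators numbered 3 to 5 (3 without WT replicate 1 or WT replicate 2). They were also 3 with library totals alone.

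Reversed values were near 0 and not called. Nova1 was 0.00059 with library totals, where Elavl1 was 0.0071 and Ptbp3 0.025. Ptbp3 was 0.0075 with upper-quartile normalization. Without single libraries, Nova2 ran from -0.063 to 0.0021 (without Fmr1-KO replicate 2), Elavl1 from -0.046 to 0.0011 and Ptbp3 from -0.035 to 0.036. Per kilobase of the longest transcript, WT levels were 80.2 (Elavl3), 71.6 (Ptbp2), 67.7 (Rbfox2), 60.5 (Ptbp1), 33.7 (Rbfox1), 21.8 (Rbfox3), 15.2 (Elavl2), 14.9 (Elavl4) and 10.3 RPKM (Nova1), as merged exons are longer. The log2 differences of the 7 ratios between genotypes cannot change with the length used, since length cancels, so their equality is not a check. Replicate numbers did not pair the libraries: correlations of same-numbered deviations were -0.0289, 0.0323 and -0.0147. With a replicate block 3 members were lower and 4 higher, and no member changed its call.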
